A study of Canis lupus familiaris with 9 samples.

Results

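Glycolysis splits glucose into pyruvate in the cytosol, and lactate dehydrogenase can then turn pyruvate into lactate. Several of its steps are carried out by isoenzymes, proteins of separate genes that catalyse the same reaction. Resting T cells use the pathway little, whereas activated and dividing T cells are known to use it heavily. The genes described here are the glycolytic enzymes HK1, HK2, PFKL, PFKM, PFKP, ALDOA, TPI1, GAPDH, PKM and LDHA, chosen by gene symbol. Of these 10 genes, 7 were found under their symbols among 28008 features, each in 1 row, and all 7 passed the filter on low values. ALDOA (aldolase), PKM (pyruvate kinase) and LDHA (lactate dehydrogenase A) were not analysed here.

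Gene expression was measured by RNA sequencing in 9 canine libraries. The lymphomas were CD4+ peripheral T cell lymphomas (PTCL), cancers of mature T cells: 3 from Boxers (2 castrated males aged 6 years and a spayed female aged 8) and 3 from other breeds. The other-breed lymphomas came from a spayed Cavalier King Charles Spaniel aged 3, a spayed Rhodesian Ridgeback aged 4 and a castrated Collie aged 11. The 3 controls were sorted CD4+ T cells of healthy hounds, all intact females aged 1 year. Breed, age, sex and neutering therefore differ between lymphomas and controls along with disease and cannot be told apart from it. Sorting is stated for the controls alone, and the tissue of the lymphomas is not given. Nothing says that the 3 controls were different animals, so the spread behind the p-values may be technical in part.

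The libraries held 11710623 to 18488468 reads. Values are the deposited normalised read counts, which are reads divided by 1 size factor per library, and are given as mean ± SD. A change is a difference of means on the log2(value + 1) scale by limma, with its standard error (SE), and understates the change of low genes. It was called at a Benjamini-Hochberg adjusted p under 0.05 over all genes tested. Of 8 T cell markers 7 were found (CD4 was not), and their summed level was 47447 to 86661 in lymphomas and 68012 to 69979 in controls. CD3G rose and the other 6 did not pass the threshold. Among these, CD5 was lower in every lymphoma (265 to 4320 reads) than in any control (10272 to 10649). In other-breed lymphomas alone CD2 was called higher and CD5 lower, where 15.5% of all genes were called higher and 14.2% lower. In Boxer lymphomas alone 0 of the 7 passed. All 8 tested macrophage markers rose, with summed levels of 787 to 18390 in lymphomas against 111 to 191 in controls, where VSIG4 was at 0. Of 7 fibroblast markers 5 rose, with summed levels of 72.6 to 10074 in lymphomas against 12.4 to 23.2 in controls, and LUM and MMP2 were at 0 in all controls. All 4 neutrophil, 4 of 5 dendritic cell, 3 of 5 endothelial and 0 of 5 B cell markers rose, and 1 erythroid marker was tested and rose (ALAS2). All 9 tested division markers rose, with summed levels of 16579 to 45050 in lymphomas against 3606 to 3928 in controls. The part of these cells in the results below was not tested, and in bulk samples fewer cells of a type and less RNA per cell cannot be told apart.

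In the lymphomas 4 of the 7 enzyme genes rose, 0 fell and 3 did not pass the threshold. Of all 15977 genes tested, 19.4% were called higher and 15.7% lower. HK2, PFKP, TPI1 and GAPDH rose, and HK1, PFKL and PFKM did not pass. The median change of the 7 genes was 1.59 on the log2 scale, beside 0.05 over all genes. For HK2, PFKM, PFKP, TPI1 and GAPDH every lymphoma lay above every control, which held upwards for 18.5% of all genes (downwards 17.2%, and 0 of the 7). Together the 7 genes took 0.132 ± 0.0214% of the reads in lymphomas (SD, n = 6) and 0.0435 ± 0.0026% in controls (SD, n = 3). The lymphomas ranged from 0.104% to 0.165% and the controls from 0.0406% to 0.0457%, without overlap.

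**Figure D1:**
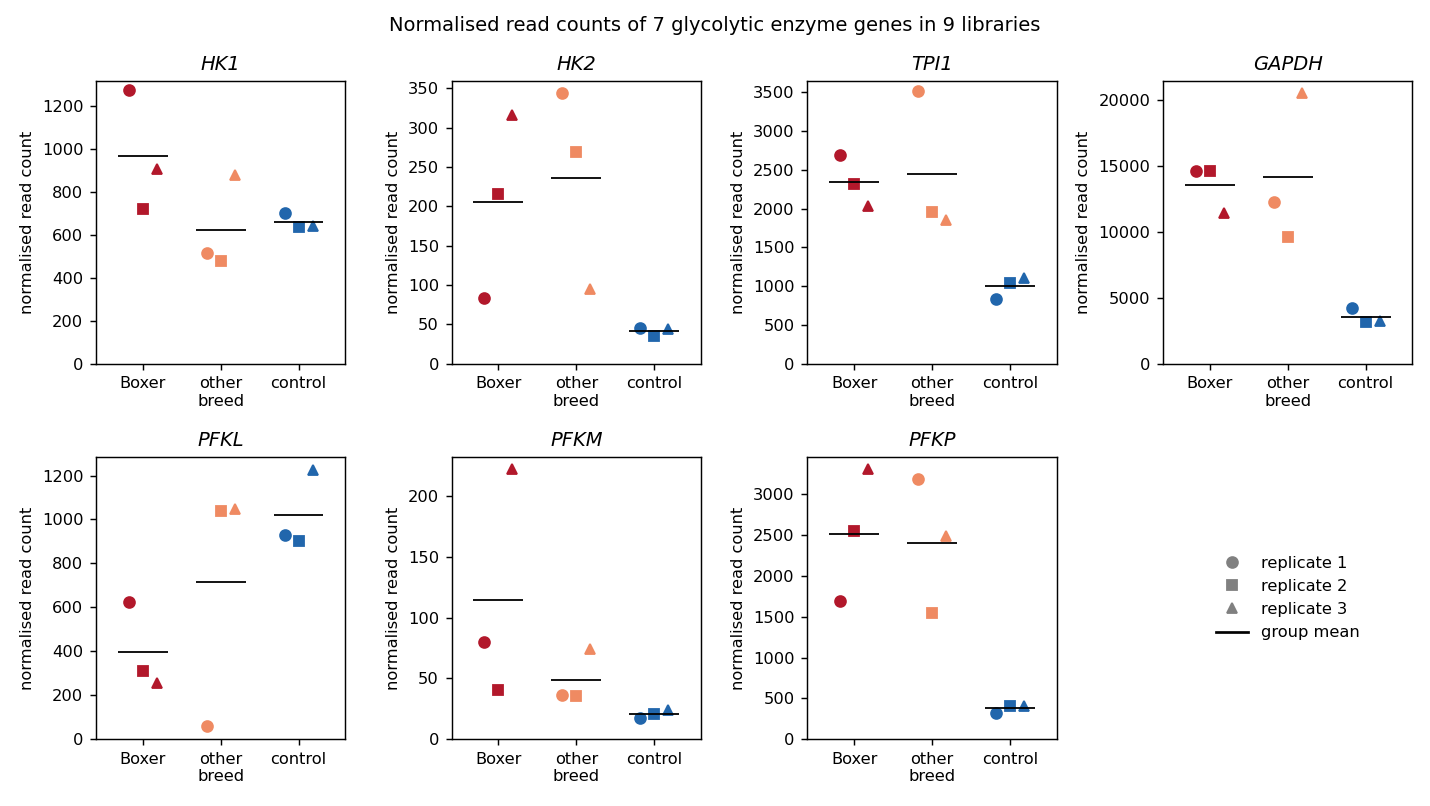
Normalised read counts (vertical axes, from 0) of the 7 enzyme genes in Boxer lymphomas, other-breed lymphomas and control CD4+ T cells. Each point is a library, its shape gives the replicate number, and bars are group means. All 6 lymphomas lie above the 3 controls for HK2, PFKM, PFKP, TPI1 and GAPDH, while HK1 and PFKL overlap.

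Hexokinases catalyse the first step and trap glucose in the cell as glucose 6-phosphate. HK1 is the broadly expressed form, and HK2 is the inducible form of muscle, fat and many tumours. HK2 (ENSCAFG00000008265) had 84.1, 216 and 315 normalised reads in Boxer lymphomas 1 to 3, 344, 269 and 95.5 in other-breed lymphomas 1 to 3, and 45.0, 34.7 and 44.5 in controls 1 to 3. Boxer lymphoma 1 and other-breed lymphoma 3 were the lowest lymphomas, and both still lay above all controls. The means were 221 ± 110.3 reads in lymphomas and 41.4 ± 5.82 in controls, a log2 change of 2.20 ± 0.49 (SE, limma adjusted p = 0.00706).

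HK1 (ENSCAFG00000013917) had 1278, 721 and 909 reads in the Boxer lymphomas, 516, 477 and 881 in the other-breed lymphomas, and 704, 637 and 641 in the controls. The controls fell between the lymphomas, with 4 lymphomas above all controls and 2 below them. Its change of 0.19 ± 0.29 did not pass (95% confidence interval -0.46 to 0.83, limma adjusted p = 0.635). The sign turned in 3 alternatives: it was -0.23 among female dogs alone and with sex as a covariate, and -0.32 with age as a covariate. The female-only and sex-covariate fits give the same change for any gene tested in both, because no control was male. The 3 lymphomas with the most HK1 (Boxer 1, Boxer 3 and other-breed 3) also had the largest sums of macrophage markers, at 7930, 9244 and 18390. The other 3 had sums of 3854, 787 and 2654. The same 3 had the largest sums of fibroblast markers (2840.1, 10074 and 6772, against 1886, 131 and 72.6 in the other 3) and were the 3 castrated males. Among the 3 the order of HK1 was the reverse of that of the macrophage sums. LYZ made up most of each macrophage sum (616 to 16931 reads in lymphomas). LYZ, CSF1R and TYROBP were highest in the same 3 lymphomas, while CD68, C1QA, C1QB, C1QC, MARCO and VSIG4 were not. C1QC was 166 to 206 reads in Boxer lymphomas and 36.5 to 99.8 in other-breed lymphomas. Of the fibroblast markers COL1A1, COL3A1 and LUM were highest in the same 3 lymphomas, while COL1A2, DCN, PDGFRB and MMP2 were not. MMP2 was 173 to 629 reads in Boxer lymphomas and 9.42 to 131 in other-breed lymphomas. The part of macrophages or fibroblasts in the HK1 level was not tested.

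The balance of the hexokinase genes varied from lymphoma to lymphoma. HK2 took 6.18%, 23.1% and 25.8% of the hexokinase reads (HK1 plus HK2) in Boxer lymphomas 1 to 3. It took 40.0%, 36.0% and 9.78% in other-breed lymphomas 1 to 3, and 6.01%, 5.17% and 6.49% in controls 1 to 3. Boxer lymphoma 1 stood within the controls' range, and 5 lymphomas stood above it. The widest 95% Wilson interval of these shares was ± 3.54 percentage points. Such intervals cover counting error alone. These are shares of reads, not scaled by gene length, and are compared here between libraries and not between genes. The log2 ratio HK2:HK1 averaged -1.96 ± 1.32 in lymphomas and -3.97 ± 0.17 in controls. The difference of 2.01 did not pass the exact permutation test over samples (two-sided p = 0.0595, 0.0794 adjusted over 4 isoform ratios). Without Boxer lymphoma 1, the lymphoma within the controls' range, the difference was 2.40 (exact permutation p = 0.0179). This p was not adjusted over the ratios and is the smallest possible with that lymphoma left out.

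Phosphofructokinase commits fructose 6-phosphate to glycolysis and is the pathway's main control point. Its subunits are named for liver (PFKL), muscle (PFKM) and platelets (PFKP), and form mixed tetramers. PFKP (ENSCAFG00000005468) had 1689, 2545 and 3305 reads in the Boxer lymphomas, 3178, 1544 and 2491 in the other-breed lymphomas, and 322, 411 and 406 in the controls. All lymphomas lay above all controls. PFKP had the largest change of the 7 genes, at 2459 ± 731 reads in lymphomas and 380 ± 49.9 in controls, a log2 change of 2.64 ± 0.26 (SE, limma adjusted p = 9.40e-05).

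PFKL (ENSCAFG00000010846) showed another pattern. It had 625.3, 310.0 and 255 reads in the Boxer lymphomas, 61.2, 1039 and 1048 in the other-breed lymphomas, and 930, 902 and 1227 in the controls. Other-breed lymphoma 1 had 52 reads before scaling (exact Poisson 95% interval 38.8 to 68.2, counting error only), the fewest of any library, while other-breed lymphomas 2 and 3 lay among the controls. Over all lymphomas the change of -1.38 ± 0.77 did not pass (95% confidence interval -3.09 to 0.33, limma adjusted p = 0.183). The SD of PFKL on the log2 scale was 1.55 among the lymphomas and 0.24 among the controls, beside medians over all tested genes of 0.56 and 0.25.

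PFKM (ENSCAFG00000009035) had 79.9, 40.8 and 222 reads in the Boxer lymphomas, 36.5, 35.5 and 74.3 in the other-breed lymphomas, and 17.7, 20.6 and 24.1 in the controls. Boxer lymphoma 3 was far above the rest, and all lymphomas were above all controls. The controls rest on 13, 25 and 26 reads, and the 13 reads of control 1 have an exact Poisson 95% interval of 6.92 to 22.2. The change of 1.59 ± 0.59 did not pass over all lymphomas (95% confidence interval 0.29 to 2.90, limma adjusted p = 0.0581). It passed in 4 of 20 alternatives: without other-breed lymphoma 1 (adjusted p = 0.0440), 2 (0.0427) or both (0.0224), and by DESeq2 on the recovered reads (1.96, adjusted p = 0.0115). It was smaller with age as a covariate (1.10, limma adjusted p = 0.470), with sex as a covariate (0.83, 0.258) and among female dogs alone (0.83, 0.187). The 4 skeletal muscle markers found (ACTA1, CKM, DES and TNNT3) summed to 3.53 to 137 reads in lymphomas and 0 to 2.78 in controls, where ACTA1, CKM and TNNT3 were at 0. DES, also a gene of smooth muscle, made up most of the larger sums (0 to 136 reads in lymphomas), while ACTA1, CKM and TNNT3 reached at most 7.29, 6.31 and 4.16. The sum was highest in other-breed lymphoma 3 (137), whose PFKM was 74.3, and was 71.8 in Boxer lymphoma 3. The part of muscle in the PFKM level was not tested.

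Of the phosphofructokinase reads PFKP took a larger share, and PFKL a smaller one, in each lymphoma than in any control. The share of PFKP was 70.5%, 87.9% and 87.4% in Boxer lymphomas 1 to 3, 97.0%, 59.0% and 68.9% in other-breed lymphomas 1 to 3, and 25.4%, 30.8% and 24.5% in controls 1 to 3. PFKL took 26.1%, 10.7% and 6.75% in the Boxer lymphomas, 1.87%, 39.7% and 29.0% in the other-breed lymphomas, and 73.2%, 67.6% and 74.1% in the controls. The share of PFKM was 1.11% to 5.86% in lymphomas and 1.40% to 1.55% in controls, where the groups overlap. Reads of the 3 genes together came to 3096 ± 553 in lymphomas and 1420.1 ± 208 in controls, with ranges of 2394 to 3782 in lymphomas and 1269 to 1657 in controls. Other-breed lymphomas 2 and 3 had PFKP above and PFKL within the controls' range, whereas in other-breed lymphoma 1 PFKL was below it.

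As a log2 ratio, PFKP:PFKL averaged 2.61 ± 1.90 in lymphomas (range 0.57 to 5.68) and -1.42 ± 0.25 in controls (range -1.59 to -1.13). The groups did not overlap and the difference was 4.03 (two-sided exact permutation p = 0.0238, 0.0794 adjusted over 4 ratios, smallest p possible 0.0119). PFKM:PFKL averaged -2.57 ± 1.78 in lymphomas and -5.54 ± 0.14 in controls, a difference of 2.97 (exact permutation p = 0.0476, adjusted 0.0794). PFKP:PFKM averaged 5.18 ± 0.94 in lymphomas and 4.13 ± 0.12 in controls and overlapped, with a difference of 1.05 (exact permutation p = 0.119, adjusted 0.119). No isoform ratio passed after adjustment. The unadjusted p of PFKP:PFKL was 0.0536 without Boxer lymphoma 2 and 0.0714 without control 1 or control 3. That of PFKM:PFKL was 0.0536 without Boxer lymphoma 1, Boxer lymphoma 2 or other-breed lymphoma 3, and 0.0714 without any 1 control.

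**Figure D2:**
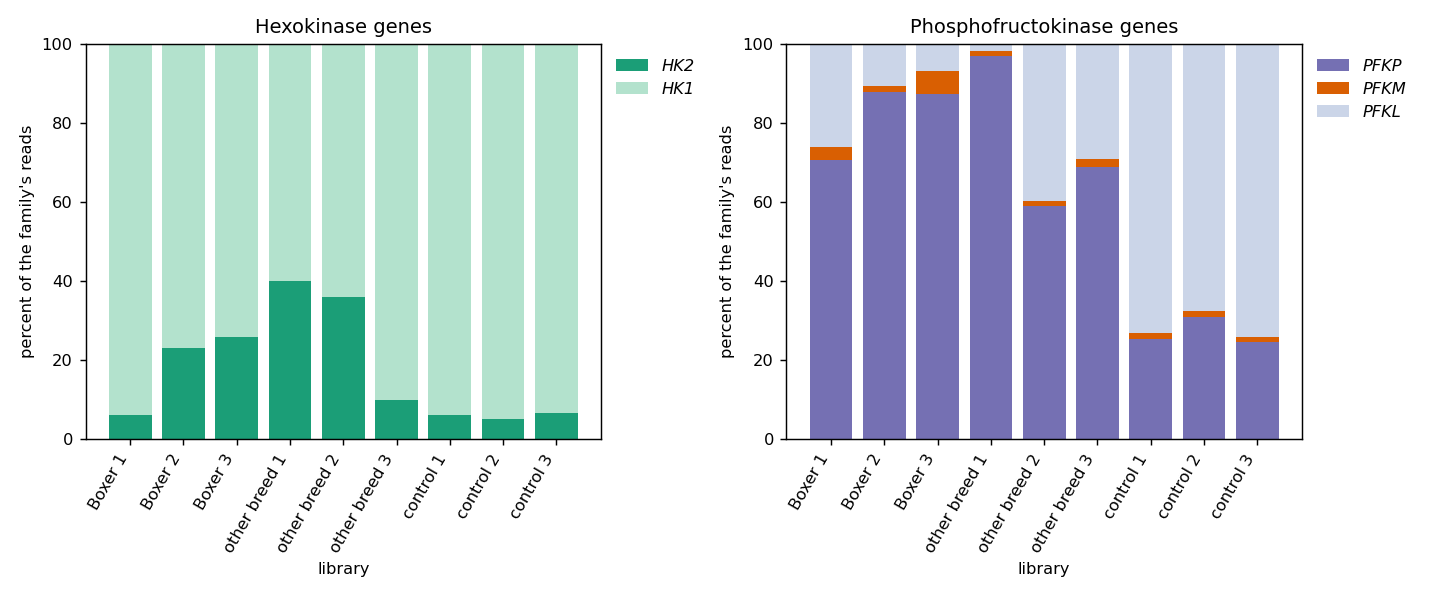
Percent of hexokinase reads (left) and of phosphofructokinase reads (right) taken by each gene in each of the 9 libraries. Bars sum to 100%, and the shares are of reads, not scaled by gene length. PFKP takes 59.0% to 97.0% of phosphofructokinase reads in lymphomas and 24.5% to 30.8% in controls, and HK2 takes 6.18% to 40.0% of hexokinase reads in lymphomas and 5.17% to 6.49% in controls.

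Triosephosphate isomerase, encoded by TPI1, interconverts the products of aldolase. TPI1 (ENSCAFG00000014553) had 2695, 2314 and 2029 reads in the Boxer lymphomas, 3512, 1957 and 1855 in the other-breed lymphomas, and 839, 1046 and 1110 in the controls. Every lymphoma exceeded every control. The SD on the log2 scale was 0.35 among lymphomas, beside a median over all tested genes of 0.56. It was 0.20 in Boxer lymphomas (median 0.49) and 0.51 in other-breed lymphomas (median 0.47). The means were 2394 ± 626 in lymphomas and 999 ± 142 in controls, a log2 change of 1.23 ± 0.21 (limma adjusted p = 0.0020).

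Glyceraldehyde 3-phosphate dehydrogenase, encoded by GAPDH, carries out the step that makes NADH. GAPDH (ENSCAFG00000015077) had 14620.1, 14615 and 11465 reads in the Boxer lymphomas, 12247, 9622 and 20564 in the other-breed lymphomas, and 4190.3, 3139.8 and 3231 in the controls. Other-breed lymphoma 3 was the highest library, and all lymphomas lay above all controls. The means were 13855 ± 3805 in lymphomas and 3520.4 ± 582 in controls, a log2 change of 1.95 ± 0.23 (limma adjusted p = 2.60e-04). GAPDH made up 61.6% to 76.1% of the reads of the 7 genes in lymphomas and 48.3% to 59.5% in controls. GAPDH and TPI1 have pseudogene copies in mammalian genomes, and how the authors' counting split reads among such copies is not known, so these levels are uncertain in that respect.

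GAPDH often serves as a reference gene that is taken to be constant, and the genes commonly used in this way were therefore compared. Of 9 such genes 7 were found. GUSB (0.89 ± 0.17, limma adjusted p = 0.00367) and HPRT1 (0.79 ± 0.20, adjusted p = 0.0115) rose, and 0 fell. The change of ACTB was 0.66 ± 0.24 (adjusted p = 0.0522), and it was called by DESeq2 (0.00567), by edgeR (0.0473), and by limma with a pseudocount of 0.5 (0.0479), on TMM-scaled values (0.0481) or without other-breed lymphoma 3 (0.0357). TBP (0.29), PPIA (0.24), SDHA (-0.12) and B2M (-0.60) did not pass. The log2 ratio of GAPDH to each of the 7 was higher in lymphomas, by 1.06 over GUSB at the least and 2.55 over B2M at the most. Exact permutation p-values of these 7 ratios, two-sided, ran between 0.0119 and 0.0357 (0.0208 to 0.0357 adjusted over the 7). All 7 ratios share GAPDH, so they are not separate results, and their test was added after seeing the data. PPIA, which also has many near-identical copies, had 365 ± 181 reads in lymphomas and 273 ± 37.3 in controls. The call of HPRT1 ended without control 2 or control 3 (adjusted p = 0.0620 and 0.0554), with age (0.0894) or sex (0.0556) as a covariate, and among female dogs alone (0.0716).

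**Figure D3:**
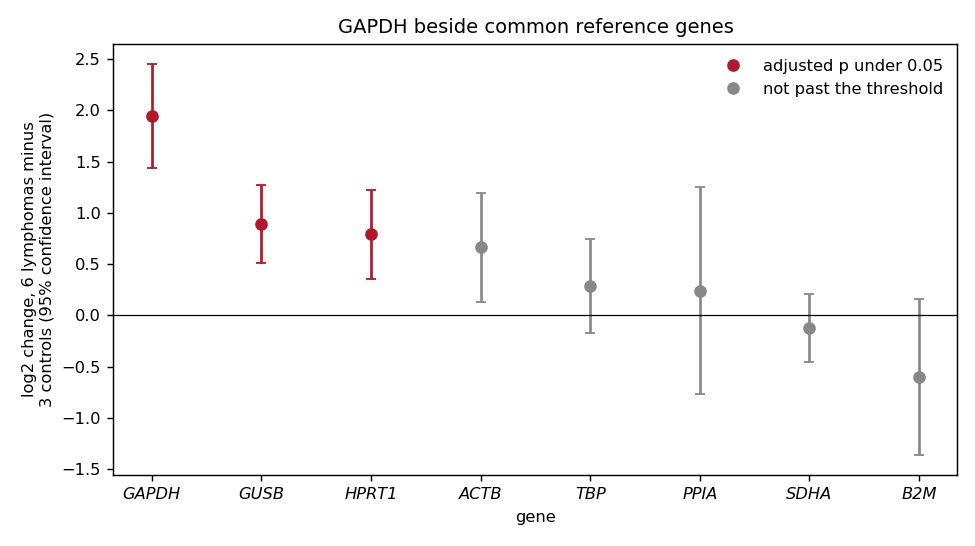
Log2 change between 6 lymphomas and 3 controls (vertical axis) of GAPDH and 7 genes in common use as references. Points are limma estimates and bars 95% confidence intervals. GAPDH changed by 1.95, the reference genes by -0.60 to 0.89.

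The next comparisons asked whether the pattern was the same in each lymphoma group. Both groups were set against the same 3 controls. Among Boxer lymphomas 5 of the 7 genes rose, 1 fell and 1 did not pass, where 21.5% of 15155 genes were called higher and 17.9% lower. PFKP rose by 2.68 ± 0.26 on the log2 scale, HK2 by 2.10 ± 0.52, PFKM by 2.07 ± 0.64, GAPDH by 1.95 ± 0.19 and TPI1 by 1.23 ± 0.19. PFKL fell by 1.46 ± 0.34 (limma adjusted p = 0.0125), with all 3 Boxer lymphomas below all controls. HK1 was above the controls in all 3 and did not pass (0.51 ± 0.23, adjusted p = 0.116), but passed without Boxer lymphoma 2 (0.71, adjusted p = 0.0377). Groups did not overlap upwards for 6 of the 7 genes and downwards for 1, beside 28.5% and 26.3% of all genes. The call of PFKL ended without control 3 (adjusted p = 0.0563), and in 1 fit over the 3 groups (0.253). That of PFKM ended without any 1 control (0.0833 to 0.102) or without Boxer lymphoma 1 or 3 (0.0557 and 0.0725). That of HK2 ended without control 2 (0.0614).

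Among other-breed lymphomas 4 of the 7 genes rose, 0 fell and 3 did not pass, where 15.5% of 14631 genes were called higher and 14.2% lower. PFKP rose by 2.61 ± 0.28, HK2 by 2.30 ± 0.52, GAPDH by 1.94 ± 0.29 and TPI1 by 1.24 ± 0.27. PFKM (1.11 ± 0.49, limma adjusted p = 0.126) was above all controls and did not pass. PFKL (-1.31 ± 1.02, adjusted p = 0.363) and HK1 (-0.14 ± 0.25, adjusted p = 0.712) did not pass either. PFKL stood at 0.05 without other-breed lymphoma 1. Groups did not overlap upwards for 5 of the 7 genes, beside 24.7% of all genes (downwards 24.2%, and 0 of the 7). The call of HK2 ended without any 1 control (0.0537 to 0.0702) and that of TPI1 without control 1 or 2 (0.0603 and 0.0557).

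Set directly against each other, Boxer and other-breed lymphomas passed the test in 0 of the 7 genes, which does not show that they are alike. By limma 0 of all 15112 genes (0%) were called in either direction, edgeR called 0 as well, and 753 had an unadjusted p under 0.05. Groups did not overlap for 0 of the 7 genes, beside 4.99% of all genes upwards and 5.7% downwards. The 95% confidence intervals of the difference were -0.75 to 0.76 for GAPDH, -0.68 to 0.67 for TPI1, -0.76 to 0.90 for PFKP and -0.13 to 1.43 for HK1. For HK2 (-1.77 to 1.36), PFKM (-0.75 to 2.66) and PFKL (-2.72 to 2.43) the intervals were wider. The isoform ratios gave exact permutation p-values of 0.3 to 0.9, where 3 against 3 cannot go below 0.1.

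**Figure D4:**
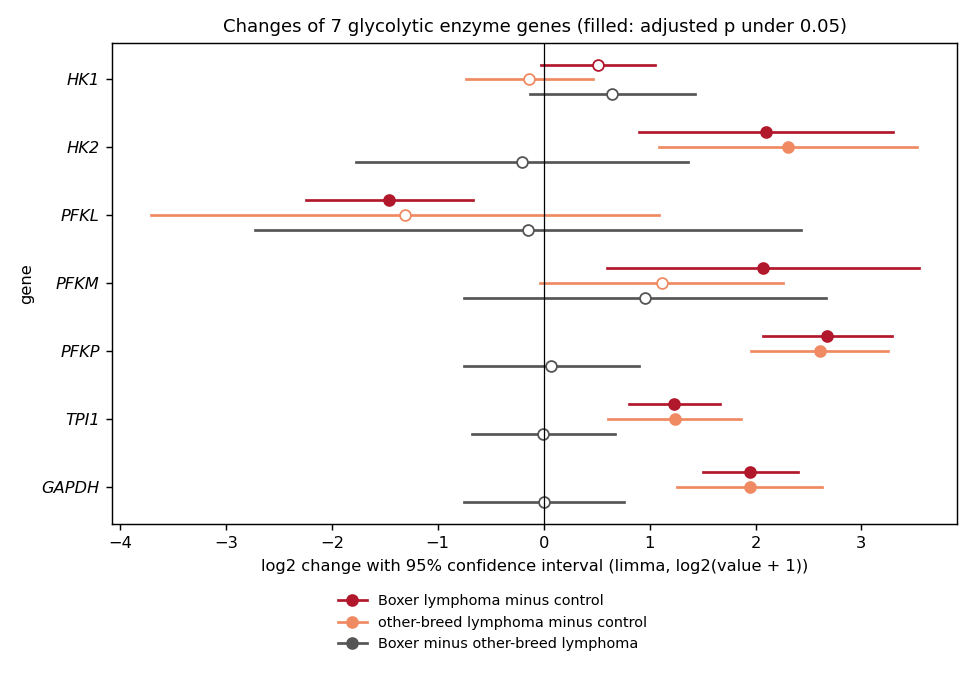
Log2 change (horizontal axis) of the 7 genes with 95% confidence intervals by limma, for Boxer lymphomas minus controls, other-breed lymphomas minus controls, and Boxer minus other-breed lymphomas. Filled points passed an adjusted p of 0.05. HK2, PFKP, TPI1 and GAPDH are filled for both lymphoma groups, PFKL and PFKM for Boxers, and none for the direct difference.

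Among the remaining enzymes of glycolysis 1 tested gene passed. Of 20 listed genes 15 were found and 9 tested, of which 1 rose and 0 fell, with a median change of 0.35 beside 0.05 over all genes. Of all genes 19.4% were called higher and 15.7% lower. PGAM4, a phosphoglycerate mutase gene by its symbol, had 2993 ± 673 reads in lymphomas and 1340.2 ± 201 in controls and rose by 1.14 ± 0.20 (limma adjusted p = 0.00245). In humans PGAM4 is a near copy of PGAM1, and its level is uncertain for that reason. PGAM1, PGK1 and ENO1 were not analysed here. The glucose phosphate isomerase gene GPI (0.35 ± 0.32), the enolase gene ENO2 (0.35 ± 0.28), the aldolase gene ALDOC (0.36 ± 0.62) and the lactate dehydrogenase gene LDHB (0.27 ± 0.34) did not pass. Neither did HK3, a hexokinase of myeloid cells, at 34.1 ± 17.0 reads in lymphomas and 11.0 ± 8.37 in controls (1.61 ± 0.61, adjusted p = 0.0616). HK3 was called by DESeq2 (adjusted p = 0.0475) and by limma without Boxer lymphoma 2 (0.0316). In other-breed lymphomas against controls 3 of the 9 rose: PGAM4 (1.20 ± 0.26, limma adjusted p = 0.0146), HK3 (2.09 ± 0.64, 0.0453) and GPI (0.79 ± 0.25, 0.0489). Of all genes 15.5% were called higher in that comparison. These 3 calls were not examined under the alternatives, and those of HK3 and GPI were near the threshold. HK3 had 5 to 25 reads per control before scaling. In Boxer lymphomas PGAM4 alone rose (1.08 ± 0.17, 0.00268), where 21.5% of all genes were called higher.

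Of 7 tested genes that control the pathway 2 rose, 1 fell and 4 did not pass (median 0.51), against 19.4% higher and 15.7% lower among all genes. FBP1, whose enzyme runs the phosphofructokinase step backwards, had 95.2 to 997 reads in lymphomas, against 0 to 25.0 in controls. All lymphomas exceeded all controls, and FBP1 rose by 5.71 ± 1.01 (limma adjusted p = 0.00232). TIGAR, which lowers the phosphofructokinase activator fructose 2,6-bisphosphate, rose by 0.95 ± 0.22 (adjusted p = 0.00913). TXNIP, which restrains glucose uptake, fell by 1.17 ± 0.34 (adjusted p = 0.0235), a call that ended without control 1 (0.110) or control 2 (0.0682). PFKFB3, which makes the same activator, had 1161 ± 438 reads in lymphomas and 1937 ± 177 in controls, with no overlap, and did not pass (-0.83 ± 0.33, adjusted p = 0.0694).

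Among 8 tested genes of glucose and lactate transport 4 rose, 1 fell and 3 did not pass (median 0.93). Of all genes 19.4% were called higher and 15.7% lower. SLC2A3, the glucose transporter GLUT3 of neurons and lymphocytes, fell to 543 ± 248 reads in lymphomas, against 1954 ± 172 in controls (-1.99 ± 0.38, limma adjusted p = 0.00349), and every lymphoma lay below every control. SLC2A1, the broadly expressed GLUT1, had 431 ± 234 reads in lymphomas, against 285 ± 13.2 in controls, and did not pass (0.45 ± 0.37). SLC2A8 (2.28 ± 0.32), SLC16A7 (3.95 ± 0.94), SLC16A1 (1.66 ± 0.55) and SLC2A6 (1.34 ± 0.45) rose, which encode other glucose transporters and monocarboxylate carriers. SLC16A7 was a low gene, at 48.7 ± 42.4 reads in lymphomas and 1.38 ± 1.39 in controls. Its call ended without control 2 (adjusted p = 0.0542). That of SLC16A1 ended in 7 of 9 leave-one-out fits, all but those without Boxer lymphoma 1 or other-breed lymphoma 3 (0.0582 to 0.121). That of SLC2A6 ended in 8, all but the one without Boxer lymphoma 2 (0.0517 to 0.171).

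Genes that pass carbon onward also rose in part, where 19.4% of all genes were called higher and 15.7% lower. Of 10 tested genes of pyruvate entry into mitochondria 4 rose and 0 fell (median 0.67): the pyruvate dehydrogenase subunit genes PDHA1 (1.21 ± 0.17), DLD (0.73 ± 0.16) and DLAT (0.72 ± 0.16), and the activating phosphatase gene PDP1 (1.60 ± 0.33). Of 6 listed genes of the pentose phosphate pathway, which branches off after hexokinase, 3 were found and tested, and all 3 rose (median 0.52). They were PGLS (0.84 ± 0.23), TKT (0.52 ± 0.17) and PGD (0.49 ± 0.16). The calls of TKT and PGD were near the threshold (limma adjusted p = 0.0341 and 0.0407) and ended in 6 and 7 of 9 leave-one-out fits. That of TKT held without Boxer lymphoma 1, Boxer lymphoma 2 or other-breed lymphoma 2, and that of PGD without Boxer lymphoma 2 or other-breed lymphoma 2 (otherwise 0.0517 to 0.146 for TKT and 0.0529 to 0.139 for PGD). The call of DLAT ended without control 2 (0.0532) and that of PGLS without control 1 (0.0947) or control 2 (0.0513).

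**Figure D5:**
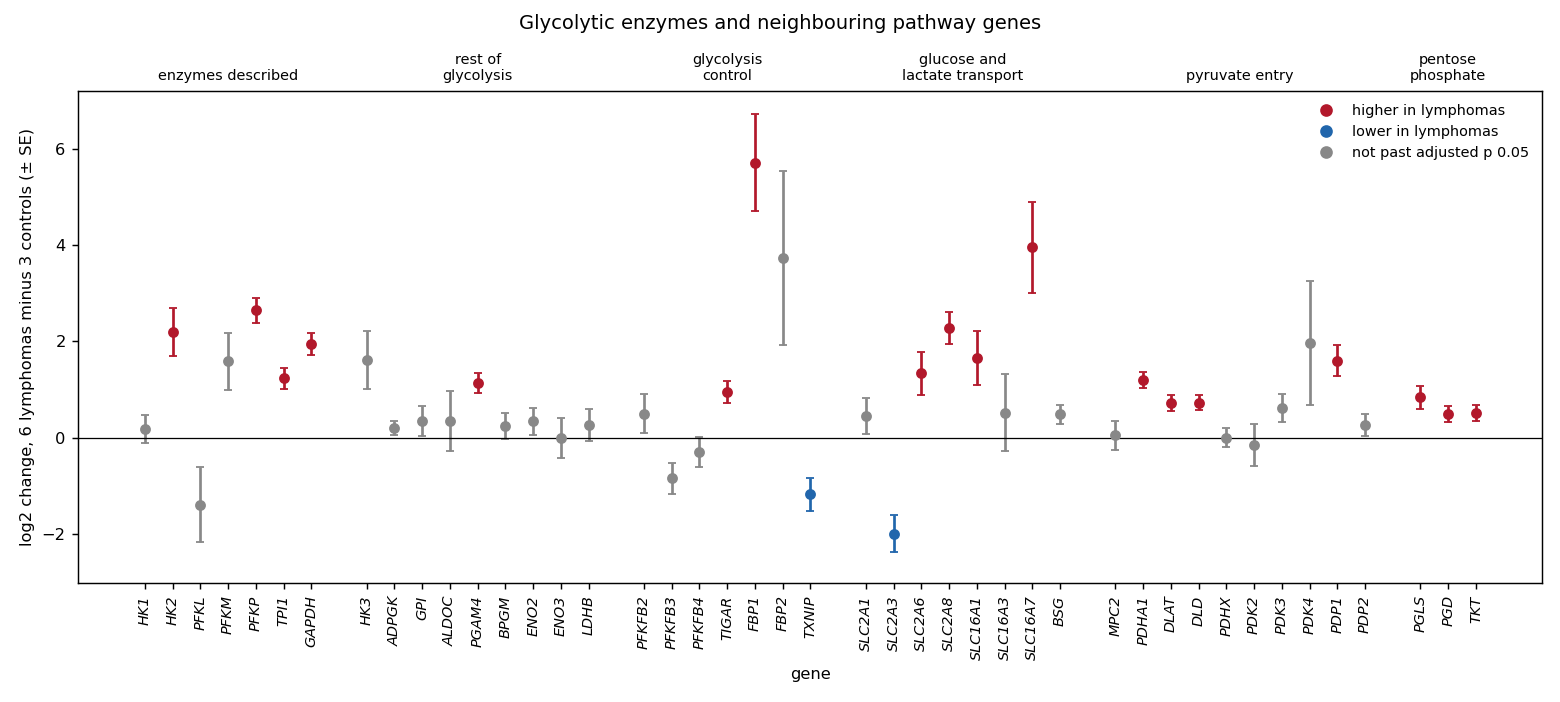
Log2 change between 6 lymphomas and 3 controls (vertical axis, points with SE bars) of the 7 enzyme genes and of the tested genes of 5 neighbouring lists. Red points were called higher, blue points lower and grey points did not pass. Changes ran between -1.99 for SLC2A3 and 5.71 for FBP1.

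Hypoxia-inducible factor drives HK2 and many other glycolytic genes in low oxygen, and its partners and targets outside glycolysis were listed for that reason. Of 12 tested, 2 rose, 2 fell and 8 did not pass, with a median change of -0.35, again against 19.4% higher and 15.7% lower among all genes. VEGFA rose by 3.63 ± 0.99 and the oxygen sensor gene EGLN1 by 0.45 ± 0.14, while ARNT, the constant partner of the factor, fell by 0.74 ± 0.19 and ANKRD37 by 1.07 ± 0.29. VEGFA overlapped between groups, at 17.7 to 748 reads in lymphomas and 8.26 to 20.5 in controls. The calls of VEGFA ended without control 2 or 3 (limma adjusted p = 0.0753 and 0.0614), of ARNT without control 2 or 3 (0.0586 and 0.0607), of ANKRD37 without control 1 or 3 (0.0613 and 0.0743), and of EGLN1 without control 2, control 3 or Boxer lymphoma 3 (0.0577 to 0.162). In Boxer lymphomas against controls 5 of the 12 rose, with VEGFA, HIF1A, P4HA1 and DDIT4 among them, and 2 fell (median 0.16). Of all genes 21.5% were called higher and 17.9% lower there. In other-breed lymphomas 0 rose and ARNT fell (median -0.05), beside 15.5% higher and 14.2% lower among all genes. Set directly against each other, the lymphoma groups passed in 0 of the 12. Of 4 tested factors that act on PKM splicing, NEK2, also a mitotic kinase, rose by 3.43 ± 0.34 over all lymphomas. PTBP1 (0.11 ± 0.12), SRSF3 (0.24 ± 0.14) and HNRNPA2B1 (0.29 ± 0.22) did not pass. Of the 21 genes of these neighbouring lists called over all lymphomas and named, 17 lost the call with age as a covariate. NEK2, PDHA1, SLC16A1 and SLC2A8 kept it. With sex as a covariate 8 lost it. HK2, PFKP, TPI1 and GAPDH kept theirs in both fits. All controls had the same age and sex, so neither fit can separate age or sex from disease.

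The 7 genes varied in how alike their profiles were. Likeness was measured as the root-mean-square difference between 2 genes' log2 values over the 9 libraries, each gene centred on its own mean. This keeps the difference between lymphomas and controls, so genes with a like change lie close. An example is ERP29 (log2 change 2.63) beside PFKP (2.64). The closest pairs were GAPDH with PFKP (0.56) and GAPDH with TPI1 (0.57), followed by HK2 with PFKP (0.64). PFKL was farthest from the rest, at 1.34 from HK1 and 2.37 from PFKP. Over all tested genes with a symbol, those nearest to PFKP were ERP29 (0.24), the replication gene MCM2 (0.26) and OIP5 (0.28). Nearest to GAPDH were PCCB (0.23), RRBP1 (0.23) and APLP2 (0.26), and nearest to TPI1 were COQ10A (0.18), ALAS2 (0.19) and MVB12B (0.19). HK2 lay nearest to NEDD4L (0.35), FNDC3B (0.40) and REPIN1 (0.41), and HK1 to ATL3 (0.18), the lysosomal protease gene CTSB (0.20) and ZSWIM4 (0.22). PFKL lay nearest to CCDC50 (0.36), TRPC1 (0.37) and LY96 (0.38), and PFKM to TF (0.39), ITGA9 (0.40) and CACNA1I (0.43).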

How the data were processed

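RNA of 9 samples was enriched for messenger RNA with oligo(dT) beads, per the labels' protocols. TopHat2, HTSeq and DESeq2 were used with build CanFam3.1, per the submitters' processing notes. Strandedness is not given in the sources, and reads of antisense neighbours may be included. The deposited signal per gene is the authors' read count divided by 1 size factor per library. All values (100%) were whole multiples of the value of 1 read within 0.01 reads, so whole reads were recovered, and the factors equalled median-of-ratios factors (ratio 1). limma 3.58.1 in R 4.3.3 was run on log2(value + 1) with a mean-variance trend, for genes reaching 10 in 3 or more libraries of a comparison. edgeR 4.0.16 and DESeq2 1.42.0 on recovered reads were alternatives, and the fits were tested on simulated data. Isoform ratios and GAPDH over reference genes were compared with two-sided exact permutation tests over 84 or 20 ways. The test of GAPDH over reference genes was added after seeing the data. Genes were named by rule: the listed enzymes, up to 4 called genes per direction of each list, 8 isoenzymes and the reference genes. Uncalled genes outside that rule (PFKFB3, SLC2A1, PTBP1, SRSF3, HNRNPA2B1) were named after their values were seen. Members and lists were chosen with earlier results of these data known. The ratio LDHA:LDHB was not analysed here, and some listed genes are not reported here. No coordinates are given, since the files hold none.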

Additional observations from a re-analysis of the deposited data

Results flagged for a closer look

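Of 17 sets of 6 lymphoma values checked for a distant sample (the 7 enzyme genes, 5 isoenzyme genes, 4 isoform ratios and the share of reads), 1 was flagged, and chance flags about 5% of such sets. PFKM in Boxer lymphoma 3 was at 222 normalised reads, against 35.5 to 79.9 in the other 5 lymphomas. The gap to the nearest library was 0.762 of the whole range (critical value 0.625). It was taken on normalised reads, where a high value stands out more than on the log2 scale.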

How the results depend on the processing

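HK2, PFKP, TPI1 and GAPDH stayed higher in lymphomas and called under all 20 alternatives of the comparison with controls (largest adjusted p 0.0383, 0.00578, 0.0145 and 0.0136). Their changes ran from 1.87 to 3.25, 2.53 to 2.77, 1.11 to 1.61 and 1.34 to 2.10, with HK2 highest and GAPDH lowest with age as a covariate, where PFKL stood at -2.88 (adjusted p = 0.108). With age as a covariate 1048 genes were called higher and 885 lower, and sign changes arose for HK1 (-0.32), LDHB (-0.17), ALDOC (-1.25) and PPIA (-0.22). With sex as a covariate, and among female dogs alone, HK1 stood at -0.23 and ALDOC at -0.41. Those fits give the same changes because no control was male, so they are not separate settings among the 20. The controls also shared 1 age, so the covariate fits cannot separate age or sex from disease. Among female dogs alone PFKP:PFKL differed by 4.51 and PFKM:PFKL by 2.72, where 3 against 3 cannot go below an exact p of 0.1, and without other-breed lymphomas 1 and 2 PFKM:PFKL differed by 3.08. In 1 fit over 3 groups, 0 of the 7 genes fell in Boxer lymphomas, and 2 genes of all were higher in Boxer than in other-breed lymphomas. A pseudocount of 5 called 2 genes lower there, TMM scaling put TPI1 at 0.0026 and edgeR put GAPDH at -0.060. The cause of these shifts was not tested.

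Leaving out 1 library at a time, 1866 to 3291 genes were higher and 1194 to 2605 lower in lymphomas, 2108 to 2570 and 1238 to 2821 in Boxer lymphomas, 1007 to 2155 and 617 to 2464 in other-breed lymphomas, and 0 to 1 in each direction between the lymphoma groups. The lowest counts against controls came without control 2. Of the 7 genes 3 to 6 rose and 0 to 1 fell in Boxer lymphomas, and 2 to 4 rose in other-breed lymphomas. In lymphomas against controls HK2:HK1 differed by 1.74 to 2.40, PFKP:PFKL by 3.41 to 4.43, PFKM:PFKL by 2.50 to 3.43 and ALDOC by -0.043 to 0.62. In other-breed lymphomas HK1 ranged from -0.41 to 0.030 and PFKL from -1.99 to 0.047. Between Boxer and other-breed lymphomas the ranges were -0.76 to 0.33 for HK2, -1.50 to 0.53 for PFKL, -0.22 to 0.33 for PFKP, -0.17 to 0.29 for TPI1, -0.24 to 0.31 for GAPDH and -0.74 to 1.81 for PFKP:PFKL.

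Replicate numbers did not pair the samples (correlations of -0.136 to 0.104). With a replicate block 2752 genes were higher and 2158 lower in lymphomas, 4 of the 7 genes still rose, and SLC16A1, SLC2A6 and EGLN1 lost their calls (adjusted p = 0.0600, 0.0546 and 0.0645). DESeq2 and edgeR shifted the median change of all genes to 0.13.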
